A study of Mus musculus with 8 samples.

Results

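The genes described here are 44 nuclear genes whose products act on mitochondrial DNA (mtDNA) and on the RNA made from it, from the mitochondrial RNA polymerase to the enzymes that cut, extend, modify and degrade its transcripts. They were chosen by name, with earlier results of these data known. Every probe with a RefSeq transcript accession of 1 of these genes was taken, without regard to its signal. The array carried 71 such probes among 56605, for 44 of 22911 genes that could be named.

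Skeletal muscle RNA of 6 male mice aged 17 months was hybridized to 8 Agilent 1-color arrays, with 3 WT mice, 3 Grsf1cKO mice, and a repeat array each for WT 1 and Grsf1cKO 1. The comparison asked which transcripts of aged muscle differed after loss of GRSF1, an RNA-binding protein of the mitochondrial RNA granule. Grsf1cKO mice came from the Grsf1tm1a allele, whose LacZ and Neo cassettes had been removed with FLPo, leaving exons IV and V between LoxP sites, and carried Myf5Cre, so that deletion was limited to cells with a history of Myf5 promoter activity. The sources used here give no strain or Cre genotype for the WT mice, and they name the muscle differently: vastus intermedius in the labels, rectus femoris in the methods.

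Mitochondrial DNA is transcribed from both strands into long precursors. Transfer RNAs that lie between most of the coding genes are cut out, which frees the messenger and ribosomal RNAs, and these are then polyadenylated, modified, translated or degraded, in part within RNA granules next to the nucleoid. All proteins that do this are encoded in the nucleus, and muscle, with its high demand for oxidative phosphorylation, is among the tissues most affected when they are defective.

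Values are log2 signals after quantile normalization, with the arrays of a mouse averaged to 1 value, and a log2 fold change is Grsf1cKO minus WT. Testing required that the scanner software marked a probe as well above background on all arrays of at least 3 of the 6 mice. Calls of change needed more than a 1.5-fold difference, an unadjusted limma p under 0.01 and a false discovery rate (Benjamini-Hochberg) under 0.2. The repeat array of Grsf1cKO 1 stood apart, with 88.9% of spots well above background where the other arrays had 66.3 to 73.1%. The slides were also uneven, since slide 1 held only WT 2 and the first of the WT 1 arrays, and slide 2 held all others.

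The targeted gene was read first. Grsf1 gave 14.31, 14.26 and 14.28 in WT 1, 2 and 3, and 12.16, 12.03 and 12.09 in Grsf1cKO 1, 2 and 3. All Grsf1cKO mice were far below all WT mice, and Grsf1 fell by 2.19 on the log2 scale (SE 0.08, limma adjusted p = 0.00275). The position of the probe within the gene was not given in the files, so it was not established whether it lies in the deleted exons. In whole muscle, fewer cells with a transcript and less transcript per cell cannot be told apart.

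No member was called changed. All 44 genes had at least 1 probe that could be tested, 69 of the 71 probes in all, and limma called 0 of them, while over all 38886 probes it called 1 higher and 2 lower (0.00771%). At an unadjusted p under 0.05 there were also 0 member probes, against 4.24% of all probes. A z-test modelled on the methods called 135 probes (0.347% of all), 0 of them members. It left out the analysis of variance filter of the methods, and its count is not that of the paper. The lowest unadjusted p of any member in limma was 0.055, for Mrm1, and adjusted p-values ran from 0.994 to 0.999.

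The size of the differences was small in every role. Log2 fold changes ran from -0.28 (Mrm1) to 0.16 (Rexo2), that is, no gene differed by more than 1.22-fold. With the brightest tested probe standing for each gene, the 95% interval lay within 1.5-fold in both directions for 42 of the 44 genes, and only those of Mterf3 and Rexo2 reached past 1.5-fold. Over all probes the interval lay within 1.5-fold for 64.7%, against 95.7% of member probes, whose median SE was 0.11 where that of all probes was 0.14. Changes under 1.5-fold could not be called by rule, and with 3 mice in each group the intervals leave room for such changes.

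**Figure D1:**
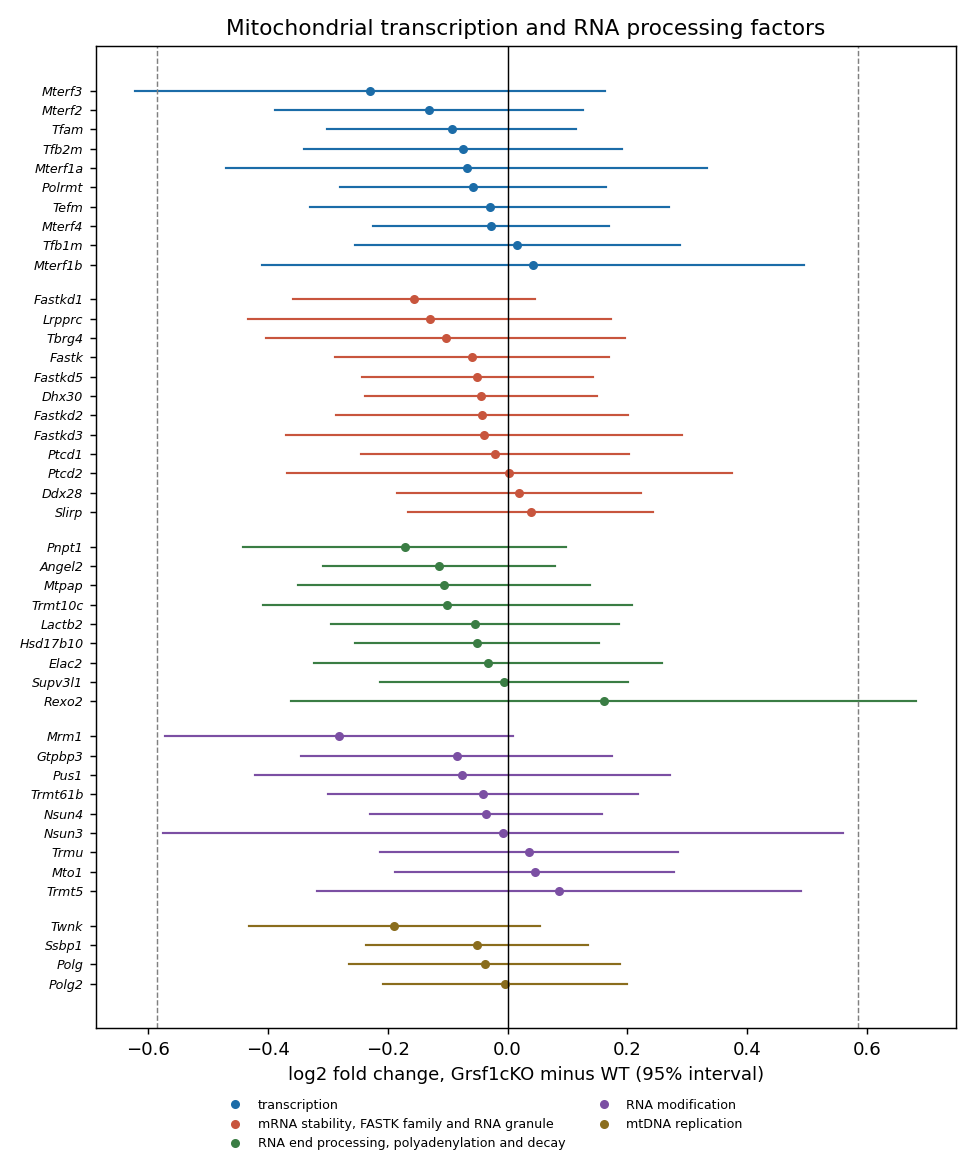
Log2 fold change (Grsf1cKO minus WT, x axis) of the brightest tested probe of each of the 44 genes, grouped by role, with 3 mice in each group. Points are estimates, horizontal lines are 95% intervals from limma and dashed lines mark a 1.5-fold difference; all points lie between -0.28 and 0.16, and 35 of them are below 0.

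Most estimates were slightly negative. Of the 44 genes, 35 were below 0 and 9 above, with a median of -0.05, and 51 of 69 probes (73.9%) were below 0, against 57.4% of all probes, whose median was -0.03. WT 1 was the highest of the 6 mice in 25 of the 44 genes, while 20.6% of all probes were highest there, and Grsf1cKO 3 was the lowest in 13, while 19.3% of all probes were lowest there. Without WT 1, the median of the members was -0.03, the same as that of all probes at this rounding, and 30 genes were below 0. Without Grsf1cKO 3, it was -0.04 and 29 genes were below 0, and without Grsf1cKO 1 it was -0.07 and 35 were. On slide 2 alone the median was -0.06, and with slide as a term in the model it was also -0.06. When arrays were scaled by their 75th percentile it was -0.05, while the median of all probes moved to 0.01. The deposited z-scores gave -0.075 with 38 genes below 0 (-0.05 for all probes), and another background correction (normexp) gave -0.03 with 33.

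Genotypes did not overlap in 6 member probes, all lower in Grsf1cKO (those of Angel2, Fastkd1, Mrm1, Ssbp1 and Twnk, and the dimmer probe of Tfb2m), and in 0 probes higher in Grsf1cKO. Over all probes, 6.27% were lower without overlap and 3.09% were higher. With 3 mice against 3, an exact permutation test cannot give a two-sided p below 0.1.

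None of the core transcription genes was called, and by their brightest probes the genotypes overlapped in all of them. Polrmt, the RNA polymerase of mitochondria, read 12.68, 12.50 and 12.64 in WT 1, 2 and 3, and 12.59, 12.59 and 12.47 in Grsf1cKO 1, 2 and 3. These ranges overlapped, and the log2 fold change was -0.06 (SE 0.09). Tfam, which packages mtDNA and bends the promoter, read 13.31, 13.14 and 13.27 in WT and 13.16, 13.12 and 13.15 in Grsf1cKO, with mice in the same order here and in what follows. WT 2 lay among the Grsf1cKO mice, and the log2 fold change was -0.09 (SE 0.09), with -0.11 for its other probe. Tfb2m, which opens the promoter for the polymerase, read 13.58, 13.34 and 13.29 in WT and 13.39, 13.35 and 13.25 in Grsf1cKO. Only WT 1 stood above all the others. The dimmer Tfb2m probe, 1 of the 6 without overlap, had a log2 fold change of -0.21 (SE 0.13) against -0.07 (SE 0.11) for the brighter. Tfb1m, its relative that methylates the small ribosomal RNA, read 12.22, 11.94 and 11.93 in WT and 11.98, 12.12 and 12.04 in Grsf1cKO. Here too WT 1 was highest, and the other WT mice were below every Grsf1cKO mouse. Tefm, the elongation factor, read 11.72, 11.50 and 11.33 in WT and 11.58, 11.44 and 11.44 in Grsf1cKO, so that the WT mice spanned the whole Grsf1cKO range.

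The MTERF proteins bind mtDNA or mitochondrial ribosomal RNA. Mterf3, which takes part in ribosome assembly, had the largest difference among the transcription genes and read 11.53, 10.97 and 11.12 in WT and 11.07, 10.87 and 10.99 in Grsf1cKO. The estimate of -0.23 (SE 0.16) rested on WT 1, since WT 2 lay within the Grsf1cKO range and WT 3 just above it, and without WT 1 it was -0.07. Mterf2 was at -0.13 (SE 0.11), and Mterf4, the partner of the methyltransferase Nsun4, was at -0.03 (SE 0.08), with 0.14 for its dimmer probe. Mterf1a and Mterf1b, near-identical copies of the termination factor gene whose probes may read each other's transcripts, gave -0.07 and 0.04, and both values are uncertain for that reason. For Mterf1b the arrays of Grsf1cKO 1 also differed by 0.81 between repeat and first, and the sign depended on the arrays used. Mterf1b was at -0.10 with first arrays only and at 0.19 with repeat arrays in place.

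The LRPPRC-SLIRP complex holds mitochondrial messenger RNAs stable. Lrpprc read 15.36, 15.22 and 14.94 in WT and 15.01, 15.08 and 15.03 in Grsf1cKO. The WT mice lay on both sides of the Grsf1cKO mice, and the 3 probes of Lrpprc had log2 fold changes of -0.13, -0.01 and -0.03. Slirp read 14.81, 14.75 and 14.88 in WT and 14.85, 14.90 and 14.80 in Grsf1cKO, a log2 fold change of 0.04 (SE 0.08). The genotypes overlapped, and the interval ran from -0.17 to 0.24.

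The FASTK family and the helicases of the RNA granule, where GRSF1 itself resides, were also close to the WT level. Fastkd2, a granule protein needed for ribosome assembly, read 12.08, 11.91 and 11.99 in WT and 12.02, 12.01 and 11.82 in Grsf1cKO. Fastkd5, needed to process the transcripts that no transfer RNA borders, read 11.96, 11.93 and 11.86 in WT and 11.89, 11.85 and 11.86 in Grsf1cKO. In both genes the genotypes overlapped, with log2 fold changes of -0.04 (SE 0.10) and -0.05 (SE 0.08). Tbrg4, another family member that stabilizes a subset of messenger RNAs, read 8.61, 8.88 and 8.91 in WT and 8.62, 8.84 and 8.63 in Grsf1cKO, with WT 1 the lowest of all mice. Fastkd1 had the largest difference of the group and read 10.84, 10.83 and 10.72 in WT and 10.59, 10.67 and 10.66 in Grsf1cKO. All Grsf1cKO mice were below all WT mice for this probe (-0.16, SE 0.08), while the dimmer Fastkd1 probe overlapped and was at 0.01 (SE 0.09). Fastk was at -0.06 and Fastkd3 at -0.04.

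Ddx28 and Dhx30 are RNA helicases of the granule that act in assembly of the mitochondrial ribosome. Ddx28 read 10.90, 11.01 and 11.05 in WT and 10.996, 11.019 and 10.999 in Grsf1cKO. Dhx30 read 13.64, 13.61 and 13.56 in WT and 13.58, 13.58 and 13.51 in Grsf1cKO. Neither separated the genotypes, and the log2 fold changes were 0.02 (SE 0.08) and -0.04 (SE 0.08). Ptcd1 and Ptcd2, pentatricopeptide repeat proteins that bind mitochondrial RNA, were at -0.02 (SE 0.09) and 0.003 (SE 0.15).

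The enzymes that release transfer RNAs from the precursor overlapped between genotypes. Elac2, the nuclease that cuts behind a transfer RNA, read 11.47, 11.33 and 11.55 in WT and 11.59, 11.39 and 11.27 in Grsf1cKO. Hsd17b10 and Trmt10c form the complex that, with the nuclease Prorp, cuts in front of it. Hsd17b10 read 14.95, 14.88 and 14.80 in WT and 14.79, 14.86 and 14.82 in Grsf1cKO. Trmt10c read 10.92, 10.61 and 10.65 in WT and 10.77, 10.49 and 10.63 in Grsf1cKO. The log2 fold changes were -0.03 (SE 0.12) for Elac2, -0.05 (SE 0.08) for Hsd17b10 and -0.10 (SE 0.13) for Trmt10c. Without WT 1, Trmt10c was at -0.004, and without Grsf1cKO 1 it was at -0.17. Prorp, which is not among the 44 genes, was at -0.02 (SE 0.09).

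Among the genes of polyadenylation and decay, 0 were called, and the genotypes did not overlap in Angel2. Mtpap, the poly(A) polymerase of mitochondria, read 12.003, 11.80 and 11.78 in WT and 11.83, 11.71 and 11.71 in Grsf1cKO (-0.11, SE 0.10). Pnpt1, the exonuclease of the degradosome, read 11.96, 11.95 and 11.77 in WT and 11.78, 11.56 and 11.81 in Grsf1cKO. WT 3 lay below 2 of the Grsf1cKO mice, and the log2 fold change was -0.17 (SE 0.11). The dimmer Pnpt1 probe was at -0.25 (SE 0.17), but there the arrays of Grsf1cKO 1 differed by -1.32 between repeat and first, and without the repeat arrays it was at -0.05. Supv3l1, the helicase that works with Pnpt1, read 11.83, 11.83 and 11.97 in WT and 11.91, 11.86 and 11.85 in Grsf1cKO, with 3 probes between -0.01 and 0.02. Rexo2, which degrades the short oligonucleotides left by decay, had the highest estimate (0.16) with the second largest SE of the 44 genes (0.21). Its WT mice ran from 13.16 to 13.81. With 1 mouse left out, the Rexo2 estimate ran from 0.04 (without WT 1) to 0.36 (without WT 3). Angel2 was at -0.11 (SE 0.08), and all Grsf1cKO mice were below all WT mice, while its dimmer probe was at 0.12 (SE 0.10). Lactb2, an endoribonuclease, was at -0.05 (SE 0.10).

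**Figure D2:**
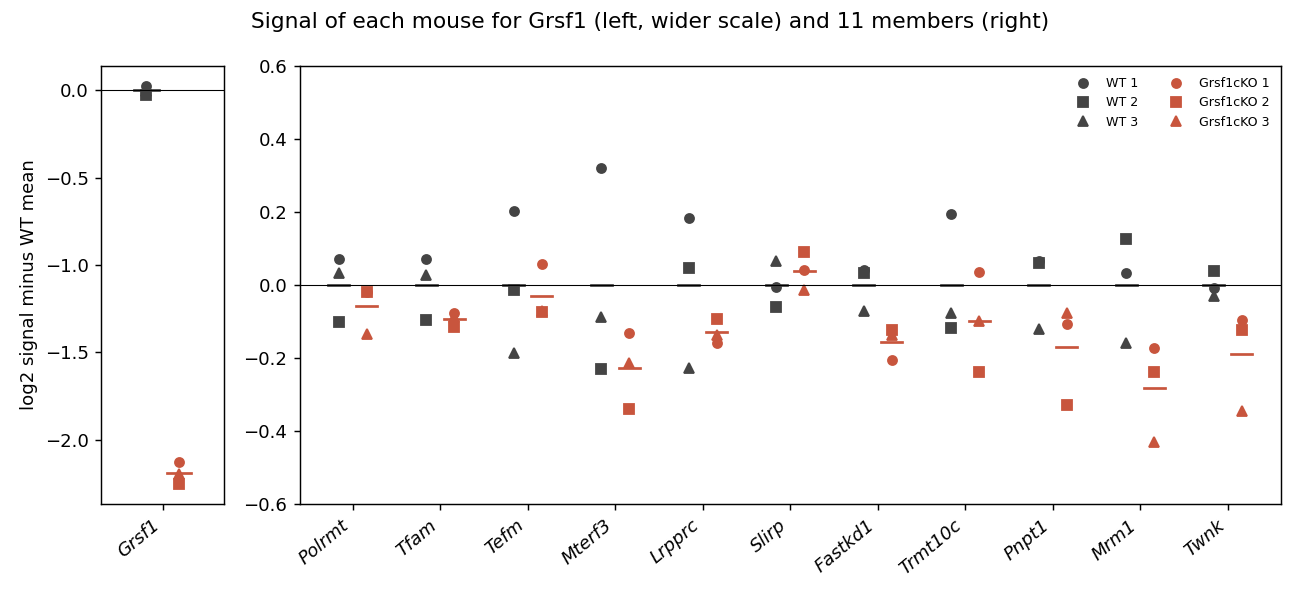
Log2 signal of each mouse minus the mean of the 3 WT mice (y axis), for Grsf1 on the left and, on a narrower scale, 11 of the 44 genes on the right. Symbols are mice and short lines are group means; Grsf1 has a log2 fold change of -2.19, and of the genes on the right only Fastkd1, Mrm1 and Twnk have no overlap.

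The largest difference among all members was that of an RNA modification enzyme. Mrm1, which methylates the ribose of the large ribosomal RNA, read 11.96, 12.05 and 11.77 in WT and 11.76, 11.69 and 11.50 in Grsf1cKO. All Grsf1cKO mice were below all WT mice, though WT 3 and Grsf1cKO 1 were nearly equal and the first array of Grsf1cKO 1 (11.80) was above WT 3, and the log2 fold change was -0.28 (SE 0.12, limma unadjusted p = 0.055, adjusted p = 0.994). Its only probe met none of the 3 criteria for a call. Mrm1 was chosen for this paragraph by being the gene of its role group with the largest difference.

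The other modification enzymes were between -0.08 and 0.09. Those of the transfer RNA wobble base, Gtpbp3, Mto1 and Trmu, were at -0.08, 0.05 and 0.04, with a dimmer Trmu probe at -0.17 (SE 0.10). Nsun4 and Nsun3, cytosine methyltransferases of ribosomal and transfer RNA, were at -0.04 and -0.01, the latter with the largest SE of the 44 genes (0.23) and a second probe that was too dim to test. Trmt5, a guanosine methyltransferase, was at 0.09 and Pus1, a pseudouridine synthase, at -0.08. Trmt61b, an adenosine methyltransferase, was at -0.04, but its probes match transcripts that RefSeq lists as noncoding, and 1 of its 3 probes was too dim to test.

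The replication proteins share the nucleoid with the transcription machinery. Twnk, the helicase of the replication fork, read 9.94, 9.99 and 9.92 in WT and 9.85, 9.83 and 9.60 in Grsf1cKO. All Grsf1cKO mice were below all WT mice, with Grsf1cKO 3 the lowest, and the log2 fold change was -0.19 (SE 0.10). The arrays of Grsf1cKO 1 read 9.75 and, in the repeat, 9.96, which is within the WT range. Polg and Polg2, the catalytic and accessory subunits of the DNA polymerase, were at -0.04 (SE 0.09) and -0.004 (SE 0.08). Ssbp1, which coats single-stranded mtDNA, did not overlap between genotypes although its estimate was only -0.05 (SE 0.08), and its second probe overlapped.

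Probes and repeat arrays give a view of the measurement itself. Of the 22 genes with more than 1 tested probe, 16 had the same sign in all of them. Repeat and first arrays of the same mouse differed by an SD of 0.10 over the member probes in WT 1. In Grsf1cKO 1 the SD was 0.21, or 0.09 without the 2 most extreme probes, while the log2 fold changes had an SD of 0.09. The labels do not say whether a repeat array used the same RNA. A difference between single arrays carries more noise than one between means of 3 mice, so these are not on equal terms. With first arrays only, the median of the members stayed at -0.05, 0 probes were called and 1, that of Twnk, had an unadjusted p under 0.05 (4.06% of all probes).

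**Figure D3:**
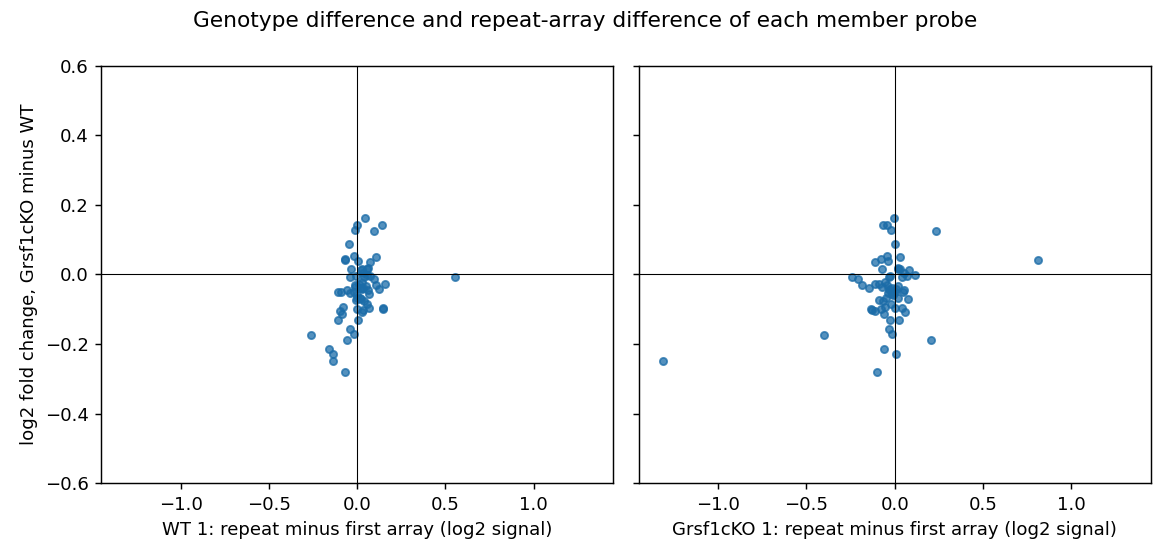
Log2 fold change between genotypes (y axis) against the difference between repeat and first array of 1 mouse (x axis), for WT 1 on the left and Grsf1cKO 1 on the right, 1 point for each of the 69 tested member probes. The SD along the x axis is 0.10 for WT 1 and 0.21 for Grsf1cKO 1, where single probes reach -1.32 and 0.81, and that along the y axis is 0.09.

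Genes that work with or above the 44 gave similar values. Of 32 other mitochondrial RNA factors, 0 were called, 20 were below 0 and the median was -0.03, with the largest difference for Mettl17, a ribosome assembly factor (-0.25). For 20 other genes of mtDNA maintenance the counts were 0 called and 13 below 0, with a median of -0.03 and the largest difference for the nuclease Mgme1 (-0.22). Of the 17 mitochondrial tRNA synthetases, 15 were below 0 (median -0.04, Vars2 at -0.22), and of 78 mitochondrial ribosomal proteins, 58 were (median -0.04). Both lists also had 0 calls. Over all probes, 0.00771% were called and 57.4% were below 0, so that 0 calls in lists of this size say little. Among all these lists, 1 gene, Mrpl47, had an unadjusted p under 0.05 in limma (-0.45, adjusted p = 0.994), against 4.24% of all probes. The 13 mitochondrially encoded messenger RNAs, the substrates of these enzymes, could not be named by accession and were not analysed here.

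Regulators of mitochondrial biogenesis switch many of these genes on. Of 16, limma called 0, none had an unadjusted p under 0.05, and 11 were below 0 with a median of -0.06. The shares over all probes were 0.00771%, 4.24% and 57.4%. Ppargc1a, the coactivator PGC-1alpha, read 12.85, 12.86 and 12.67 in WT and 12.64, 12.61 and 12.35 in Grsf1cKO, without overlap (-0.26, SE 0.12). In all, 4 were lower without overlap and 1 was higher, where over all probes 6.27% were lower and 3.09% higher. The other lower genes were Gabpb2, a subunit of the ETS factor GABP (-0.27, SE 0.12), the nuclear receptor Esrra (-0.18, SE 0.10) and the coactivator Pprc1 (-0.11, SE 0.08), and the higher one was Myc (0.29, SE 0.14). Nrf1, which encodes the factor NRF-1, and Gabpa overlapped, at -0.11 and -0.13.

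**Figure D4:**
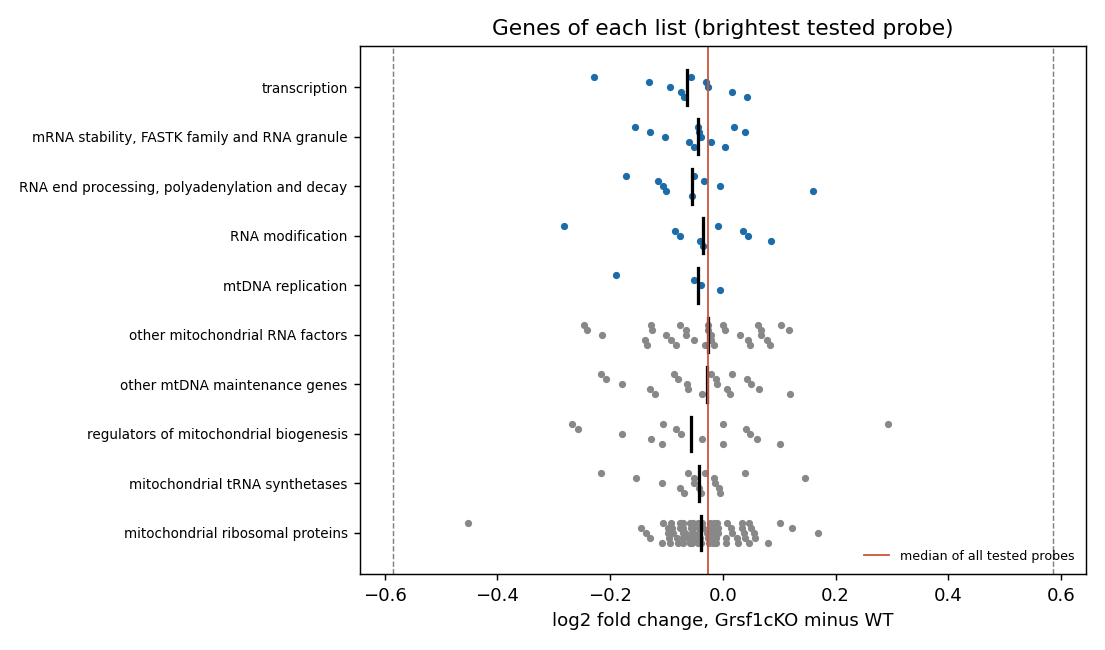
Log2 fold change (Grsf1cKO minus WT, x axis) of each gene in the 5 role groups of the 44 genes (blue) and in related lists (grey), with list medians as black bars and 1.5-fold as dashed lines. All list medians lie between -0.06 and -0.03, beside a median of -0.03 for all tested probes (red line).

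A feature shared by many of the 44 genes lies in their promoters. RefSeq windows of GRCm38.p6, 300 bases long and reaching from 250 bases before to 50 after the transcript start, were on hand for 41 genes (all but Mterf3, Mtpap and Lactb2), and motifs were sought on both strands. The letters CCGGAAG, a core bound by ETS factors such as GABP, were present in 21 of the 41 genes (51.2%), against 9.93% of all 27025 genes and 12.9% of protein-coding genes. The share was 37.7% for mitochondrial ribosomal proteins, 40% for the other mitochondrial RNA factors and 28.6% for mitochondrial tRNA synthetases (4 of 14), so that the motif was common in related lists too. Counted by window, it was in 42% of those of the members and in 8.86% of all.

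The letters of NRF-1 were searched in 2 forms with unlike results. The form searched first, CGCANGCG with G before and C after it, was in 4 genes (Polrmt, Fastkd3, Rexo2 and Ptcd1; 9.76%), against 5.19% of all genes and 7.17% of protein-coding genes. The core CGCANGCG alone, added after that count was known, was in 10 genes (24.4%), against 9.22% and 12.5%. Every match to the longer form is also a match to the core. For the longer form and the core, the shares were 18.8% and 29% for mitochondrial ribosomal proteins, 20% and 28% for the other mitochondrial RNA factors, and 14.3% and 28.6% for mitochondrial tRNA synthetases, above those of the members in both forms. A match of letters is a description, and no test was made of any of these shares.

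A stretch of 80 bases that ends at the last base before the transcript start shows where the ETS letters lie, for genes of transcription (Polrmt, Tfam, Tefm), RNA stability (Slirp), modification (Mrm1) and replication (Ssbp1), with CCGGAAG or its reverse complement in capitals, 5′ to 3′ on the strand of the gene.
Polrmt: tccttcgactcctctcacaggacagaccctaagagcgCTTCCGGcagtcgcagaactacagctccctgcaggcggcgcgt
Tfam: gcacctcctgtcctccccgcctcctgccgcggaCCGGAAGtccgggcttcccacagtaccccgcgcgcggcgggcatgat
Tefm: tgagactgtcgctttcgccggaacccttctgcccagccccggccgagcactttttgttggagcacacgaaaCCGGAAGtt
Slirp: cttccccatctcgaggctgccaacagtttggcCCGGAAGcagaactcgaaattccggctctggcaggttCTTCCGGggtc
Mrm1: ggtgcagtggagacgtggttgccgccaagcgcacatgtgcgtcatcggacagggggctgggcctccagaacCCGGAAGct
Ssbp1: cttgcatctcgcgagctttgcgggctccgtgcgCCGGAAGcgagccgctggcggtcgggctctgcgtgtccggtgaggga
The stretches lie at chr10:79746582-79746661 (Polrmt, minus strand), chr10:71238045-71238124 (Tfam, minus strand), chr11:80142154-80142233 (Tefm, minus strand), chr12:87443816-87443895 (Slirp, plus strand), chr11:84819516-84819595 (Mrm1, minus strand) and chr6:40471388-40471467 (Ssbp1, plus strand) of GRCm38.p6, upstream of the annotated start of each gene. The motif began 43 bases before the start in Polrmt, 47 in Tfam and in Ssbp1, 9 in Tefm and in Mrm1, and 48 and 11 in Slirp. Members with these letters had a median log2 fold change of -0.04 (21 genes), as did those with a window but without them (20 genes).

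Markers of cell types varied between mice. Fibre markers were present, with 10 of 10 tested, a median log2 fold change of 0.02 and Tnnt3 the brightest. Of the fast myosins, Myh2 was higher in Grsf1cKO without overlap (0.19, SE 0.10) and Myh4 lower without overlap (-0.05, SE 0.08), and neither was called. Over all probes, 3.09% were higher and 6.27% lower without overlap. The slow myosin Myh7 ranged from 9.28 in WT 1, 9.47 in Grsf1cKO 2 and 9.40 in Grsf1cKO 3 to 11.39 in WT 2, 11.33 in WT 3 and 11.36 in Grsf1cKO 1, across genotypes. All 8 macrophage markers had log2 fold changes above 0 (median 0.23), and all were highest in Grsf1cKO 3, though Cd163 was about as high in Grsf1cKO 2. The summed macrophage signal of Grsf1cKO 3 was 15.56 on the log2 scale, against 14.77, 14.89 and 14.61 in WT and 14.67 and 14.71 in Grsf1cKO 1 and 2, with Csf1r the brightest. Grsf1cKO 3 was also the mouse with the lowest value in 13 of the 44 genes.

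The remaining markers also had 0 calls, where the share over all probes was 0.00771%. Fibroblast markers had a median of 0.22 (6 of 6 above 0, Dcn the brightest), with summed signals from 18.34 in WT 3 to 18.63 in Grsf1cKO 3. Adipocyte markers had a median of -0.15, and their summed signal was lowest in WT 3 (15.38, against 17.08 in WT 2), with Cfd the brightest. Endothelial (-0.06, 7 genes), Schwann cell (0.05, 5 genes) and blood markers (-0.08, 4 of 5 genes on the array) had medians closer to 0. Of the 7 endothelial markers, 5 were below 0. Vwf was higher in Grsf1cKO without overlap (0.19, SE 0.11), as were 3.09% of all probes. Satellite cell markers had a median of 0.10 over 4 of 5 genes, with Vcam1 higher without overlap at 0.36 (limma unadjusted p = 0.0375, adjusted p = 0.994) and Myf5 not well above background on any of the 8 arrays. The part of these cell types in the values of the members was not tested.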

How the data were processed

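The authors deposited Agilent Feature Extraction 12.0.3.1 output, in which the processed intensity of a spot is linear and background corrected, together with z-scores. The deposited score of a spot is its log2 signal centred and scaled on its array; recomputed scores differed by at most 0.005. Here, non-control spots (59305 of 62976) were used, flagged spots set to missing, and 8 arrays quantile normalized together. Spots of a probe, then arrays of a mouse, were averaged as log2 signals. Genotypes were compared with limma 3.58.1 in R 4.3.3 over 38886 probes, with genotype as the only term and a value required in at least 2 mice per genotype, and the fit was tested on simulated data. The number of arrays limits the precision. Probes were named by accession (32994 of 56605) in a RefSeq table of GRCm38.p6. The brightest tested probe stands for a gene.

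Members and lists were chosen with earlier results of these data known. Per-mouse values are given for the core transcription factors, LRPPRC-SLIRP, granule, processing, degradosome and polyadenylation genes, and the largest difference of each role; for other lists, the largest differences. Nrf1, Gabpa and Prorp were added after their values were seen. Esrra, Pprc1 and Myh4 were named because their genotypes did not overlap, and not by the size of the difference. The promoter motifs and the stretches shown were also chosen after the data were seen. The NRF-1 letters were first searched with 10 letters. The core of 8 was added after that result was known, and both are given. Alternatives covered normalization, background correction, the z-scores, the detection filter, repeat arrays, slide, a z-test modelled on the methods, an intensity trend, the replicate number and each mouse left out.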

Additional observations from a re-analysis of the deposited data

How the results depend on the processing

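No member probe was called in any alternative, no member gene differed by over 1.5-fold (largest log2 fold change 0.36 in size), and over the 6 settings that can change a fold change and keep all mice, 256 of 264 values of single genes moved by less than the SD between mice. With each mouse left out, which by construction shifts a mean by less than that SD, 37 of 264 values changed sign. The largest shift was in Nsun3, by -0.22 to an estimate of -0.23 without WT 1. Member probes with an unadjusted p under 0.05 in limma numbered 0 in the main setting (4.24% of all probes). The count was 1, Mrm1, with 75th percentile scaling (3.31% of all probes) and with the deposited z-scores (3.99%). It was also 1, again Mrm1, with detection in all 6 mice (4.04%) and with an intensity trend (3.54%). First arrays only gave 1, Twnk (4.06%), and each mouse left out gave 0 to 1 (4.18 to 5.46%). Member probes without overlap, 6 in the main setting (9.36% of all probes), numbered 4 with first arrays only (9.14%) and with normexp (9.56%). They numbered 5 with 75th percentile scaling (8.18% of all probes) and with the z-scores (7.89%). On slide 2 alone there were 18 (20.4% of all probes), and with each mouse left out 8 to 17 (17.4 to 20.6%). Fewer mice give fewer ways to overlap. In the limma fit with the replicate number as a block (replicate block), 0 members were called. There, 1 member probe had an unadjusted p under 0.05 (6.18% of all probes). Grsf1, whose log2 fold change of -2.19 a block cannot alter, was no longer called. Its limma adjusted p was 0.203 with the block and 2.2e-05 to 0.0579 in the other alternatives. The block fit called 1 probe in all, against 3. Same-numbered mice had correlations of 0.226, 0.1003 and 0.0942 across probes, not all over 0.1, so the numbers were not taken as pairs, although every mouse correlated best with its own number, a hint from the data and not the design; WT 3 did so by a narrow margin (0.0936 with Grsf1cKO 2). Genes with the NRF-1 letters numbered 4 of 41 with the form searched first and 10 with the shorter core, an alternative chosen after seeing the data; the shorter letters also match more of all genes (9.22% against 5.19%). The cause of the other shifts was not tested. All but 2 member probes were above background on 8 of 8 arrays, so that signal limits few of them.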
